A study of Mus musculus with 9 samples.

Results

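The genes analysed here encode the proteins of the mitochondrial ribosome, the particle inside mitochondria that translates the few messenger RNAs of the mitochondrial genome. They were chosen by name only, as every gene of the table of sham quadriceps and sham heart whose symbol starts with Mrpl or Mrps followed by a number, and they came to 78 of the 24537 gene names in the table. Of these, 49 carried Mrpl names, given to proteins of the large subunit. The other 29 carried Mrps names, given to proteins of the small subunit, with exceptions named below. The 78 genes had 101 transcripts of the 35745 in the table, and each gene was represented by its transcript with the highest summed count.

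Mitochondrial ribosomal proteins are encoded in the nucleus, made in the cytosol and imported into the matrix, where they assemble with RNAs transcribed from mitochondrial DNA. The particle makes the mitochondrially encoded subunits of the respiratory chain and of ATP synthase, whereas the other subunits of the same complexes come from nuclear genes. Heart muscle and fast-twitch skeletal muscle are both striated but differ in how much mitochondrial volume they carry, and defects of single mitochondrial ribosomal proteins are known causes of inherited cardiomyopathy.

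The series holds 9 RNA sequencing libraries from C57Bl6 mice that underwent surgery at the age of 8 weeks and were examined 12 weeks later. Sham-operated mice gave 3 libraries of heart and 3 of quadriceps, and mice with transverse aortic constriction (TAC), a banding of the aorta that overloads the heart, gave 3 libraries of quadriceps. The sham heart and sham quadriceps libraries therefore share strain, age, surgery and time, and differ in the tissue. The table of TAC against sham quadriceps was used only to look for members: it lists 587 genes, and 0 of them are mitochondrial ribosomal proteins. It holds a selection of genes, so the absence of the members says nothing about their response to TAC. Every result therefore concerns quadriceps against heart after sham surgery, with 3 libraries each. The labels do not say which chamber of the heart was taken or whether the same mouse gave both tissues. They also do not say that the libraries of a group came from separate animals. The paper calls its RNA sequencing replicates biological, a term it uses for mice, samples or culture dishes. If libraries of a group shared an animal, p-values would measure only the spread between these libraries.

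Summed over all transcripts, each heart library held between 33102826 and 38382751 counts and each quadriceps library between 23383452 and 32989108. The cardiomyocyte and fast fiber markers were at the levels of the labelled tissue. All 6 cardiomyocyte markers, such as Myh6 and Tnni3, were lower in quadriceps, where they summed to between 7.69 and 9.93 CPM (counts scaled to a common library size) against at least 28022 in heart, and all 6 fast fiber markers, such as Myh4 and Actn3, were higher in quadriceps and summed to at most 2.35 CPM in heart. Markers of other cells also differed between the tissues: the 5 endothelial markers summed to between 469 and 507 CPM in heart and between 143 and 166 in quadriceps, the 4 erythroid markers were all lower in quadriceps, and the 4 adipocyte markers were all higher there. Of the fibroblast markers 3 of 5 were lower in quadriceps, of the leukocyte markers 3 of 4 tested, and of the Schwann cell markers 2 of 4 were higher. The 4 slow fiber markers went both ways, 2 higher and 2 lower in quadriceps. Among the 4 smooth muscle markers 1 was higher, 1 lower and 2 not called. The libraries of a tissue were not alike in this respect. Counts of Myl7, the atrial myosin light chain, stood at 2075, 164 and 3 among the hearts, and counts of Adipoq at 1183, 425 and 94 among the quadriceps muscles. The part of these cells in the results was not tested, and in whole tissue fewer cells of a type cannot be told apart from less RNA per cell.

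The comparison was made by the quasi-likelihood test of edgeR after trimmed mean of M-values (TMM) scaling, which sets the libraries so that transcripts in the middle of the range are level between them. Log2 fold changes are quadriceps over heart, each with its standard error (SE), and a gene was called when its p-value, adjusted over all 24280 transcripts tested by the Benjamini-Hochberg method, was under 0.05. All 78 members passed the count filter and were tested.

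Most mitochondrial ribosomal protein genes differed little between the tissues after TMM scaling. The counts of the 78 members together made up 0.205%, 0.207% and 0.215% of the counts summed over all 35745 transcripts in the heart libraries. In the quadriceps libraries they made up 0.154%, 0.139% and 0.132%. These sums hold several transcripts of some genes and 0 of the 15 listed genes of mitochondrial DNA, whereas each member gave 1 transcript. The library totals used below are sums of the same kind. After TMM scaling the direction turned: the members summed to 1591, 1576 and 1654 CPM in heart and to 1852, 1920 and 1749 in quadriceps. The groups do not overlap on either scale, and which tissue is higher depends on the scale. The 20 most abundant transcripts took between 19.0% and 19.6% of the counts in heart and between 28.9% and 34.0% in quadriceps, and the TMM factors were 1.29 to 1.31 in heart and 0.725 to 0.833 in quadriceps.

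With TMM, 37 members were higher in quadriceps, 11 were lower and 30 were not called, whereas with library totals 4 were higher, 51 were lower and 23 were not called. Over all transcripts tested, 32.2% were called higher and 34.4% lower with TMM, and 13.3% higher and 62.6% lower with library totals. The median log2 fold change of the members was 0.24 with TMM and -0.52 with library totals, since the change of scaling moved the median of all transcripts by -0.75 on the log2 scale and that of the members by the same amount. The difference between the members' median and that of all transcripts was 0.29 in both cases, and it was 0.30 with DESeq2 and 0.29 with upper-quartile factors. Of the 78 members, 57 lay above the median of all transcripts with TMM, with library totals and with upper-quartile factors, and 58 did with DESeq2. Without the heart library with the most Myl7 and the quadriceps library with the most adipocyte markers, edgeR with TMM called 30 members higher and 10 lower, of which 30 and 8 were also called in that direction with all libraries. The plot of all members shows TMM and library totals side by side.

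**Figure D1:**
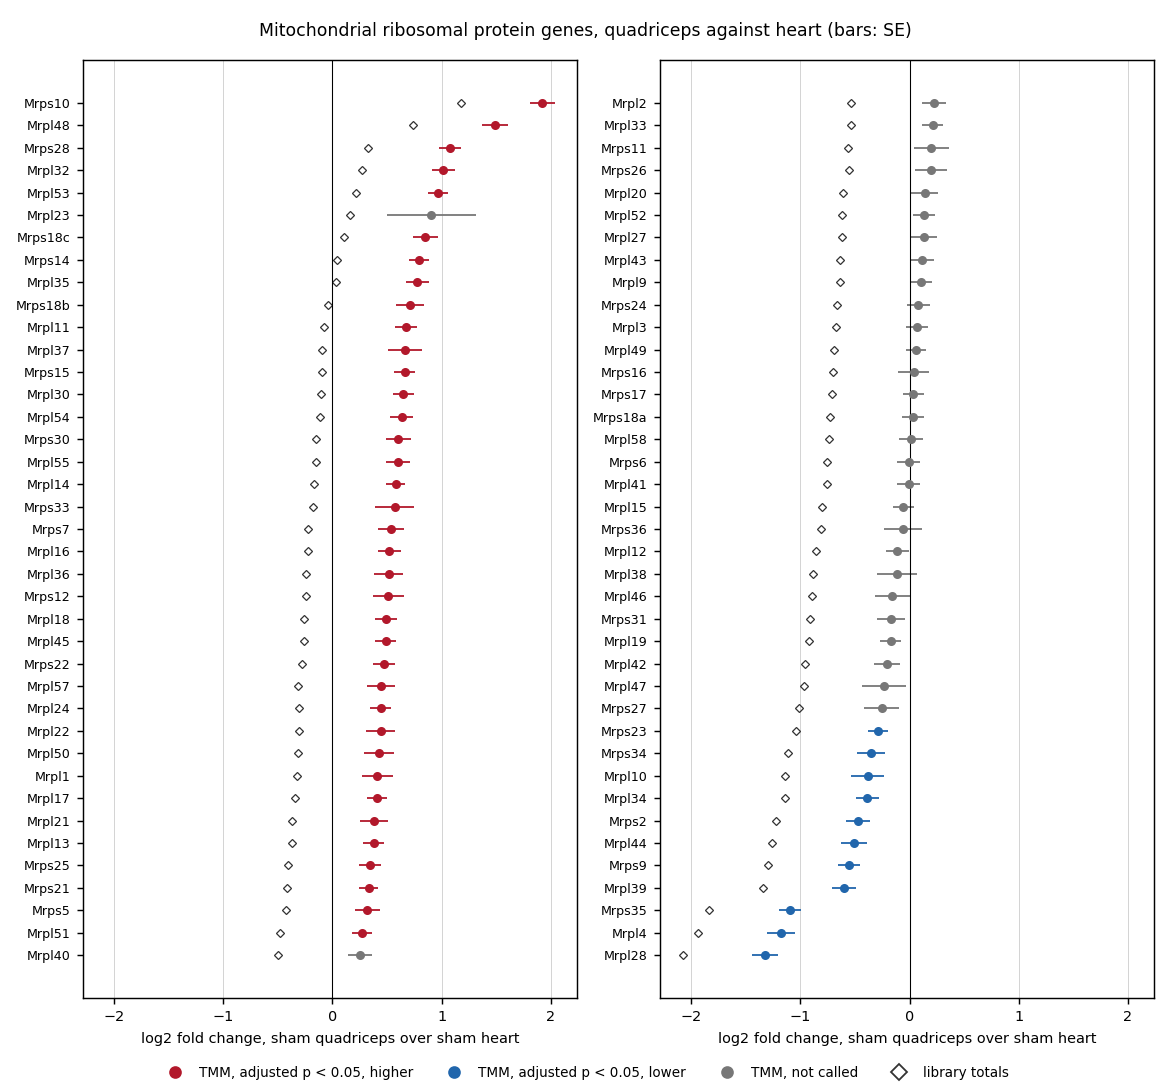
Log2 fold change of each of the 78 members, sham quadriceps over sham heart (n = 3 each), sorted from the highest at top left to the lowest at bottom right. Filled points with bars are TMM estimates with their SE, coloured by call, and open diamonds are the estimates with library totals, which lie about 0.75 lower throughout. The highest member is Mrps10 at 1.92 and the lowest is Mrpl28 at -1.32.

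With TMM the differences were small for most members and exceeded the replicate spread for many. The log2 fold change was between -0.5 and 0.5 in 49 of the 78 members (62.8%) with TMM, and in 35.5% of all transcripts tested. With library totals it was so in 37 members (47.4%) and in 26.1% of all transcripts. The sets are unlike: each member gave its transcript with the highest count. All transcripts tested include several of some genes and many with few counts, here and in the other shares over all transcripts. Past a log2 fold change of 1 with an unadjusted p under 0.05 there were 4 higher and 3 lower members, where 16.1% and 21.0% of all transcripts lay. The study used a limit of 2 for this comparison, but only for genes higher in quadriceps. Past 2 in either direction, edgeR and DESeq2 each placed 0 members, where 7.0% (higher) and 8.64% (lower) of all transcripts lay with edgeR and TMM. Library totals placed 1 there, the lower Mrpl28. The median coefficient of variation among replicates was 4.77% in heart and 8.75% in quadriceps, and the median SE of a member's log2 fold change was 0.11. The tissues did not overlap, on TMM-scaled counts, in 42 members with all quadriceps libraries above all heart libraries (background 34.2%) and in 11 with all heart libraries above (background 38.3%), and they overlapped in 25. A call in the same direction with TMM, library totals, DESeq2 and upper-quartile factors was obtained for 4 higher members, Mrps10, Mrpl48, Mrps28 and Mrpl53, where 13.3% of all transcripts met this, and for 9 lower members, where 31.6% did.

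Of the members that were lower in quadriceps, Mrpl28 differed most. It encodes a large-subunit protein with a bacterial counterpart, bL28, and lies at chr17:26123500-26126613 on the plus strand (GENCODE vM21, mm10). Its counts were 1088, 1179 and 1039 in heart and 217, 227 and 191 in quadriceps, so that every quadriceps library held fewer than any heart library. On TMM-scaled CPM it was at 23.5 ± 0.678 in heart and 9.42 ± 1.41 in quadriceps (mean ± SD, n = 3 each), a 2.51-fold lower level (log2 fold change -1.32, SE 0.12, adjusted p = 1.17e-05, edgeR). Library totals gave -2.08.

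Mrpl4 encodes uL4, which lines the tunnel through which the new peptide leaves the large subunit. It was counted 666, 730 and 663 times in heart but 151, 181 and 111 times in quadriceps, with a log2 fold change of -1.18 (SE 0.13, adjusted p = 3.7e-05, edgeR). Mrps35, a small-subunit protein found only in mitochondria, was counted 2129, 2101 and 1953 times in heart but 598, 487 and 343 times in quadriceps, a change of -1.09 (SE 0.10, adjusted p = 9.43e-06, edgeR). In both genes the heart libraries all lay above the quadriceps libraries, and library totals gave -1.94 and -1.84.

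The remaining lower members changed less. Mrpl39, a large-subunit protein related to a tRNA synthetase, was at 66.8, 60.6 and 62.5 TMM-scaled CPM in heart and at 46.1, 42.5 and 36.6 in quadriceps (log2 fold change -0.60). Mrps9, whose bacterial counterpart reaches with its tail toward the peptidyl tRNA, was at 54.3, 55.4 and 58.5 in heart and at 40.7, 39.2 and 34.5 in quadriceps (-0.55). Both were among the members with the most counts in heart, and in both the tissues did not overlap. Mrpl44, Mrps2 and Mrpl34 followed with log2 fold changes of -0.51, -0.47 and -0.39, again without overlap. Mrpl10 (-0.38), Mrps34 (-0.35) and Mrps23 (-0.29) had adjusted p-values of 0.0487, 0.0342 and 0.020 (edgeR). Mrpl10 and Mrps34 were not called with DESeq2, and they lost their calls when any library other than quadriceps 2 was left out, with adjusted p-values of up to 0.219 and 0.170 (edgeR). Mrps23 lost its call without heart 1, heart 3 or quadriceps 3 (adjusted p = 0.0768, 0.0718 and 0.0577). The libraries of the tissues overlapped in Mrpl10.

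Of the members that were higher in quadriceps, Mrps10 differed most. It encodes uS10 of the small subunit and lies at chr17:47368887-47381417 on the plus strand. Its counts were 160, 201 and 164 in heart and 406, 333 and 238 in quadriceps, higher in quadriceps even before scaling although those libraries were smaller. On TMM-scaled CPM it was at 3.72 ± 0.328 in heart and 14.1 ± 0.755 in quadriceps, a 3.79-fold higher level (log2 fold change 1.92, SE 0.12, adjusted p = 6.83e-07, edgeR). Library totals gave 1.17, so its direction did not turn with the scaling.

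Mrpl48, a protein of the central protuberance of the large subunit, was counted 204, 215 and 220 times in heart but 341, 291 and 241 times in quadriceps. Its log2 fold change was 1.49 (SE 0.12, adjusted p = 4.47e-06, edgeR), and 0.74 with library totals. Its annotated exons share 708 of 8152 bases with Rab6a on the opposite strand, whose log2 fold change was 0.94, and whether reads were counted by strand is not given in the sources used here. Mrps28, which sits in the small subunit at the place of bacterial bS1, was at 11.5, 12.2 and 12.3 TMM-scaled CPM in heart and at 24.3, 27.6 and 24.2 in quadriceps (log2 fold change 1.08, and 0.33 with library totals). Mrpl32, which is known as a substrate that the m-AAA protease of the inner membrane has to cut before it can join the ribosome, was at 13.5, 14.8 and 14.97 in heart and at 31.7, 27.0 and 28.9 in quadriceps (1.02, and 0.27 with library totals, adjusted p = 0.081).

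Mrpl53, of the stalk base, was at 16.6, 16.5 and 17.2 in heart and at 31.7, 34.7 and 32.2 in quadriceps (log2 fold change 0.97, and 0.22 with library totals). Of the 790 exonic bases of Mrpl53, 695 also belong to a predicted gene, Gm42688, on the same strand. Mrps18c (0.85), Mrps14 (0.80) and Mrpl35 (0.78) were also called with TMM, and with library totals they stood at 0.11, 0.05 and 0.03 and were not called. Mrpl23 ranked among the highest by its fold change but had few counts, namely 6, 10 and 12 for heart and 10, 10 and 6 for quadriceps (log2 fold change 0.91, SE 0.41, adjusted p = 0.0749, edgeR). Its quadriceps libraries lay above its heart libraries after TMM scaling, whereas the counts themselves overlapped.

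**Figure D2:**
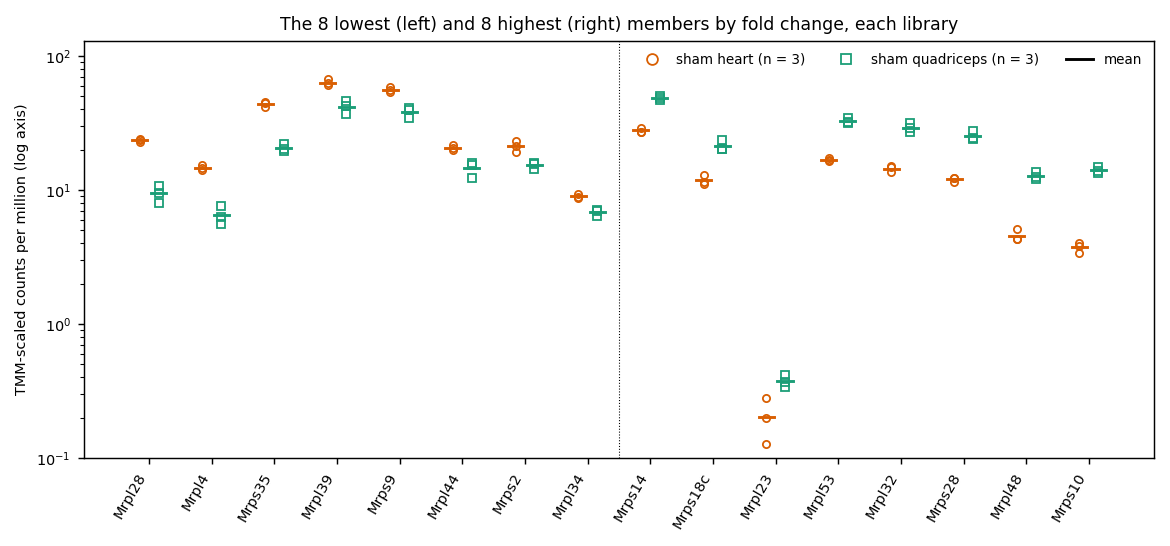
TMM-scaled CPM on a log axis in each library for the 8 members with the lowest (left of the dotted line) and the 8 with the highest (right) log2 fold change. Circles are sham heart and squares sham quadriceps libraries, and the horizontal bars are means (n = 3). In each of the 16 genes the symbols of the tissues do not overlap, and Mrpl23 lies far below the others, under 0.5 CPM in every library.

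A comparison of 2 members inside the same library does not depend on the scaling. The counts of Mrps10 were 0.147, 0.170 and 0.158 times those of Mrpl28 in heart, whereas in quadriceps they were 1.87, 1.47 and 1.25 times as high. Mrpl28 was thus the more abundant of the pair in every heart library and Mrps10 in every quadriceps library. The mean ratio was 9.64-fold higher in quadriceps, and this pair was chosen because its members lie at the ends of the ranking, so the size of the ratio is a description.

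The promoters of 69 of the 78 members are given in RefSeq (GRCm38.p6), as 250 bases before and 50 after the start of transcription. They were searched on both strands for the letters of motifs bound by regulators of nuclear genes for mitochondria: GCGCATGCG of NRF1, CCGGAAG of GABPA and other ETS factors, and AAGATGGCG of YY1, and also for TATAAA of the TATA box. NRF1 letters were present in 7 member promoters (10.1%) and in 1.95% of the promoters of all 27025 genes, GABPA letters in 26 (37.7%) and 9.93%, and YY1 letters in 8 (11.6%) and 1.64%. TATA letters were present in 5 member promoters (7.25%) and in 15.7% of all. A match is a description of the letters, and no binding was measured here.

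NRF1 and GABPA letters stood in front of members of either direction with TMM. The 7 members with NRF1 letters comprised 4 called higher, 2 lower and 1 not called with TMM, and 0 higher, 4 lower and 3 not called with library totals. The 26 with GABPA letters comprised 14 higher, 2 lower and 10 not called with TMM, and 2 higher, 18 lower and 6 not called with library totals. The 8 with YY1 letters comprised 3 higher, 0 lower and 5 not called with TMM, and 0 higher, 5 lower and 3 not called with library totals. Promoters of 8 members are shown from 150 bases before to 30 after the start, on the strand of the gene, because they set genes of different direction beside each other: the members at the ends of the ranking, then members with NRF1 letters and members with GABPA or YY1 letters that were lower, not called and higher with TMM. Letters of a searched motif are in capitals, and matches that overlap run together.

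The promoters of Mrpl28 (log2 fold change -1.32; chr17:26123353-26123532, plus strand) and Mrps10 (1.92; chr17:47369047-47369226, plus strand) held none of the searched letters in this window.
Mrpl28: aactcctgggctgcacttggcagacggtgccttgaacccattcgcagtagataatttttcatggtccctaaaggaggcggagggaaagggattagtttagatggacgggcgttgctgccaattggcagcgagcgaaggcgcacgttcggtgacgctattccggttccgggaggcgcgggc
Mrps10: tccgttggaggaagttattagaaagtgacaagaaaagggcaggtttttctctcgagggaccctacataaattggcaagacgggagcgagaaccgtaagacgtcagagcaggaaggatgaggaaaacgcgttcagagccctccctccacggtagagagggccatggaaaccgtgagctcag

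NRF1 letters stood in the promoters of Mrpl39, lower with TMM (-0.60; chr16:84735215-84735394, minus strand), Mrpl9, not called (0.11 with TMM, -0.64 with library totals; chr3:94443186-94443365, plus strand), and Mrpl32, higher with TMM (1.02; chr13:14613008-14613187, minus strand). The motif reads nearly the same on both strands, so the capitals in Mrpl39 and Mrpl9 and the first capitals in Mrpl32 are overlapping matches on the pair of strands, while the second capitals in Mrpl32 are 1 match on the opposite strand.
Mrpl39: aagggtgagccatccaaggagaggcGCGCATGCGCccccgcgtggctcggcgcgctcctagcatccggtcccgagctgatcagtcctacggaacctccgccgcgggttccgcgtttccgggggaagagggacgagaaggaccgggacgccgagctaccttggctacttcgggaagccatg
Mrpl9: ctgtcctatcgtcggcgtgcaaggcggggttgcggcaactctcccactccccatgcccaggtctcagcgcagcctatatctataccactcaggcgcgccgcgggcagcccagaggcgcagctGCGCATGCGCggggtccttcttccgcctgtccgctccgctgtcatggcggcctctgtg
Mrpl32: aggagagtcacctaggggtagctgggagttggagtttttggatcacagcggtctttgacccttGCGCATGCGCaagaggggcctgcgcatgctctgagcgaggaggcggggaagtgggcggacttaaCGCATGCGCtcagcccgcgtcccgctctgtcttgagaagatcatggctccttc

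GABPA letters stood in the promoters of Mrpl34, lower with TMM (-0.39; chr8:71464776-71464955, plus strand), Mrps18a, not called (0.03 with TMM, -0.73 with library totals; chr17:46110854-46111033, plus strand), and Mrpl53, higher with TMM (0.97; chr6:83108958-83109137, plus strand). In Mrps18a the capitals after the start of transcription are YY1 letters, and in Mrpl53 the GABPA letters stand once on each strand.
Mrpl34: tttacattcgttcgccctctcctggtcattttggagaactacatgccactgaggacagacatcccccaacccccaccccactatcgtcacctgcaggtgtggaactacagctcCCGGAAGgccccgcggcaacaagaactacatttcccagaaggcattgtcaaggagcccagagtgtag
Mrps18a: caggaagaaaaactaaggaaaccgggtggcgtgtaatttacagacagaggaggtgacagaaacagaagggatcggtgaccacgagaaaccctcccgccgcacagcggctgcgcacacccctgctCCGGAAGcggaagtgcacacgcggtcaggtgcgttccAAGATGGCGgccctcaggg
Mrpl53: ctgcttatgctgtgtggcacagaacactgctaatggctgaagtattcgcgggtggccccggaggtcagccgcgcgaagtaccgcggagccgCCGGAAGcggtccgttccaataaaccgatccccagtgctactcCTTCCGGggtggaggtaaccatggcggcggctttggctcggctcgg

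The 30 members that were not called with TMM were Mrpl2, Mrpl3, Mrpl9, Mrpl12, Mrpl15, Mrpl19, Mrpl20, Mrpl23, Mrpl27, Mrpl33, Mrpl38, Mrpl40, Mrpl41, Mrpl42, Mrpl43, Mrpl46, Mrpl47, Mrpl49, Mrpl52, Mrpl58, Mrps6, Mrps11, Mrps16, Mrps17, Mrps18a, Mrps24, Mrps26, Mrps27, Mrps31 and Mrps36. Apart from Mrpl23 their estimates ran from -0.26 in Mrps27 to 0.25 in Mrpl40. Leaving out a library made a call of 6 of them: Mrpl23 (1.19) and Mrps27 (-0.43) without heart 3, Mrpl2 without quadriceps 1 (0.33), Mrpl40 without quadriceps 1 (0.30) or quadriceps 3 (0.34), Mrpl46 without quadriceps 1 (-0.34) and Mrpl42 without quadriceps 3 (-0.31). Mrpl47 had the largest spread among quadriceps replicates, a coefficient of variation of 29.7%, with 12.3, 6.65 and 11.1 TMM-scaled CPM in quadriceps and 11.4, 10.7 and 13.1 in heart.

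Split by name, 23 of the 49 Mrpl genes were higher, 6 lower and 20 not called with TMM (median log2 fold change 0.25), and with library totals 2 were higher and 32 lower. The split is not strictly by subunit, since the Mrps names include Mrps18a, Mrps30 and Mrps36, which are described below. Of the 29 Mrps genes, 14 were higher, 5 lower and 10 not called with TMM (median 0.20), and with library totals 2 were higher and 19 lower. Summed per kilobase of transcript, the Mrpl genes stood at 183%, 183% and 180% of the Mrps genes in heart and, in quadriceps, at 192%, 190% and 191%. The libraries of the tissues did not overlap in this ratio, which needs no scaling, and the mean in quadriceps was 1.05 times that in heart.

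Proteins with a counterpart in the bacterial ribosome and proteins added during the evolution of mitochondria were both divided in direction. Of 45 members with a bacterial counterpart, 23 were higher and 6 lower with TMM (median 0.33), and 2 were higher and 27 lower with library totals. Of 30 members specific to mitochondria, 13 were higher and 5 lower with TMM (median 0.16), and 2 were higher and 22 lower with library totals. The other 3 members were in neither list. Mrps10 and Mrpl28, at the ends of the ranking, are both of bacterial origin, and Mrpl48 and Mrps35 are both specific to mitochondria.

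Within the functional regions of the particle, the calls differed from protein to protein. At the L12 stalk, where translation factors bind, Mrpl11 (log2 fold change 0.68 with TMM, -0.07 with library totals) and Mrpl53 (0.97) were called higher, Mrpl10 (-0.38) was called lower, and Mrpl12 was not called (-0.11). Mrpl12, the flexible stalk protein that is also known to bind the mitochondrial RNA polymerase, was at 44.4, 45.2 and 45.4 TMM-scaled CPM in heart and at 42.6, 45.6 and 36.7 in quadriceps, and the tissues overlapped.

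At the exit of the peptide tunnel, Mrpl17, Mrpl22, Mrpl24 and Mrpl45 were called higher with TMM, with log2 fold changes of 0.41, 0.44, 0.44 and 0.49, and with library totals they stood at -0.34, -0.31, -0.31 and -0.26. Mrpl45, which anchors the ribosome to the inner membrane, was at 28.6, 28.7 and 29.9 TMM-scaled CPM in heart and at 40.7, 43.5 and 38.1 in quadriceps. The other two of the list, Mrpl23 and Mrpl47, were not called. The call of Mrpl22 was lost without heart 1 (adjusted p = 0.0593, edgeR). The exons of Mrpl24 share 594 of 2255 bases with Rrnad1 on the opposite strand, which had a log2 fold change of 0.79.

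In the central protuberance, where the large subunit meets the head of the small one, Mrpl48 (1.49) and Mrpl18 (0.49 with TMM, -0.26 with library totals) were called higher. Mrpl27, Mrpl38, Mrpl40 and Mrpl46 were not called and lay between -0.16 and 0.25. Around the decoding site of the small subunit, Mrps12 (0.51) and Mrps5 (0.32) were called with TMM and stood at -0.25 and -0.43 with library totals, and Mrps24 was not called (0.08 with TMM, -0.67 with library totals). The call of Mrps5 was lost without heart 1, heart 2 or quadriceps 3 (adjusted p = 0.110, 0.127 and 0.0502, edgeR).

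Mammals have 3 genes related to the bacterial protein S18, and their products occupy different places: Mrps18b and Mrps18c belong to the small subunit, while Mrps18a sits in the large subunit despite its name. Mrps18a was at 19.1, 20.3 and 20.9 TMM-scaled CPM in heart and at 19.1, 22.2 and 20.2 in quadriceps (log2 fold change 0.03 with TMM, -0.73 with library totals, not called with TMM). Mrps18b (0.71 with TMM, -0.04 with library totals) and Mrps18c (0.85 with TMM, 0.11 with library totals) were both called higher with TMM. The differences between the 3 related genes were not tested. Mrps30, the other S-named protein of the large subunit, was called higher with TMM (0.60) and stood at -0.15 with library totals. Mrps36, which has since been assigned to the oxoglutarate dehydrogenase complex rather than the ribosome, was not called with TMM (-0.06).

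Of the members in which mutations are known to cause cardiomyopathy in humans, Mrpl44 was lower, Mrps14 and Mrps22 were higher with TMM, and Mrpl3 was not called. Mrpl44, which carries a ribonuclease III fold, was at 20.5, 19.8 and 21.6 TMM-scaled CPM in heart and at 12.4, 15.8 and 15.4 in quadriceps (log2 fold change -0.51, SE 0.12, adjusted p = 0.00381, edgeR). Its exons share 126 of 1644 bases with Wdfy1 on the opposite strand, which had a log2 fold change of -1.91. Mrps14, or uS14, was at 27.1, 27.3 and 29.1 in heart and at 48.5, 49.9 and 46.6 in quadriceps (0.80 with TMM, 0.05 with library totals). Mrps22 was at 18.9, 17.1 and 19.7 in heart and at 26.8, 26.2 and 24.1 in quadriceps (0.47 with TMM, -0.28 with library totals), and Mrpl3 at 34.5, 32.8 and 35.5 in heart and at 38.8, 35.4 and 33.6 in quadriceps (0.07 with TMM, -0.68 with library totals).

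Levels of different genes were compared per kilobase of transcript, as TMM-scaled CPM divided by transcript length. The median member stood at 14.6 per kilobase in heart and 15.4 in quadriceps, and the central 50% of members spanned 8.51 to 23.0 in heart and 9.79 to 27.4 in quadriceps. Across the 78 members the log2 levels of the tissues had a Pearson r of 0.910 and a Spearman rho of 0.893, where the points share the libraries and the transcript lengths. The log2 fold change had an r of -0.037 with the mean log2 level across members.

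The highest level belonged to Mrpl42 in all 3 heart libraries and in 1 quadriceps library, and to Mrps21 in the other two quadriceps libraries. Mrpl42, a large-subunit protein specific to mitochondria, stood at 80.6 ± 4.15 per kilobase in heart and 69.8 ± 10.5 in quadriceps, and Mrps21, or bS21, at 60.3 ± 1.38 and 75.9 ± 1.69. In quadriceps the pair did not differ beyond their spread. Mrpl18 (49.6 in heart and 69.6 in quadriceps) and Mrpl30 (46.2 and 72.5) came next by their mean over all libraries. At the low end, Mrpl23 stood at 0.350 and 0.652 per kilobase, and the next lowest were Mrps33 (1.89 and 2.78), Mrpl19 (2.96 and 2.62) and Mrpl17 (2.51 and 3.33). The transcripts of Mrpl19 and Mrpl17 are the longest of these, at 4993 and 6707 bases, and the level is divided by that length. The part of length in their rank was not tested.

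**Figure D3:**
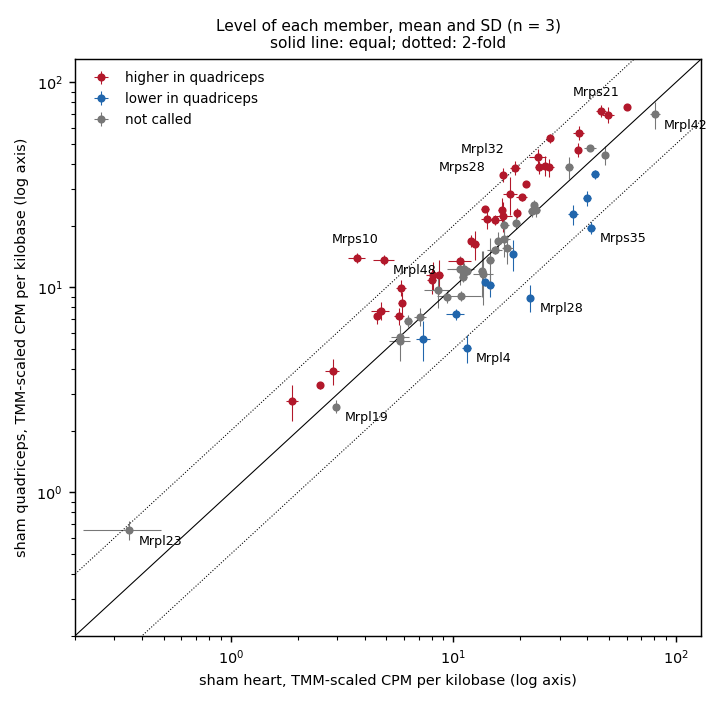
Mean level of each of the 78 members in sham heart (horizontal) and sham quadriceps (vertical), in TMM-scaled CPM per kilobase of transcript on log axes, with SD bars (n = 3 each). The solid line marks equal levels and the dotted lines a 2-fold difference. Mrps10, Mrpl48, Mrps28 and Mrpl32 lie above the upper dotted line, Mrpl28, Mrpl4 and Mrps35 below the lower one, and Mrpl23 stands apart at the bottom left.

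More than 1 transcript was listed for 14 members, and their counts are not independent where they share exons. The 3 transcripts of Mrps10 had log2 fold changes of 1.92, 1.92 and 2.06, and both transcripts of Mrpl48 were called (1.49 and 1.58). Mrps33 differed most: its chosen transcript, with 482 counts over the 6 libraries, had a log2 fold change of 0.57 with TMM and -0.18 with library totals, while the other transcript, with 223 counts, stood at -0.01. The call of the chosen transcript was lost without heart 2, heart 3 or quadriceps 2 (adjusted p = 0.0688, 0.0561 and 0.0664, edgeR). In Mrpl15 the transcripts lay on both sides of 0 as well, between -0.20 and 0.07, and none of its 3 was called. The second transcript of Mrps18b was not called either (0.17).

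The members lie on 17 chromosomes, and 33 of them share exonic bases with another annotated gene. Of these 33, 14 were called higher and 3 lower with TMM (2 and 24 with library totals), and of the 45 without such sharing, 23 were called higher and 8 lower (2 and 27 with library totals). Mrps34 shares 1309 of its 2064 exonic bases with Mapk8ip3 on the opposite strand, which had a log2 fold change of -2.30. Mrpl46 and Mrps11 share 173 bases with each other, and neither was called with TMM. Mrpl28, Mrpl4, Mrps35, Mrps10, Mrps28 and Mrpl32 share none.

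Genes of the related lists gave values on both sides as well. The lists run from ribosomal proteins with other names to nuclear regulators and nuclear subunits of oxidative phosphorylation. Of the 155 genes tested, members left out, 73 were such subunits. In all 155, 47 were called higher (30.3%) and 41 lower (26.5%) with TMM, and 10 higher and 115 lower with library totals. Over all transcripts, 32.2% were called higher and 34.4% lower with TMM, and 13.3% and 62.6% with library totals. Of the 6 ribosomal proteins that carry other names by the list, 3 were called higher with TMM: Chchd1 (log2 fold change 1.55) and Aurkaip1 (0.94) of the small subunit and Gadd45gip1 (1.15) of the large subunit. Dap3 (0.09) and Ptcd3 (-0.34) of the small subunit were not called. Mrpl58, a peptidyl-tRNA hydrolase that became part of the large subunit, is a member by name too and was not called (0.02 with TMM, -0.74 with library totals).

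Of 25 genes for assembly of the particle and modification of its RNAs, 8 were higher and 4 lower with TMM, and 1 higher and 17 lower with library totals, between Mrm1, which methylates the large ribosomal RNA (-1.21), and Malsu1, which keeps the unfinished large subunit from joining the small one (2.06). Of 16 translation factors, 6 were higher and 6 lower with TMM, and 2 higher and 11 lower with library totals, between the recycling factor Mrrf (-0.78) and Gatc, which completes the charging of glutamine tRNA (1.19). Of the 17 mitochondrial tRNA synthetases, 0 were called higher and 6 lower with TMM, and 0 higher and 16 lower with library totals, between Cars2 (-0.88) and Pars2 (0.47, not called with TMM). By unadjusted p under 0.05 with TMM, 1 synthetase was higher, and DESeq2 called 0 higher.

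Of 10 genes for mitochondrial transcription and messenger stability, 4 were higher and 3 lower with TMM, and 0 higher and 6 lower with library totals, between Lrpprc, which stabilises mitochondrial messengers (-0.97), and the elongation factor Tefm (0.71 with TMM, -0.04 with library totals). Of 9 nuclear regulators, 2 were higher and 3 lower with TMM, and 0 higher and 7 lower with library totals, between the coactivator Ppargc1b (-1.65) and the nuclear receptor Esrra (0.61 with TMM, -0.14 with library totals). The regulators whose letters were searched gave log2 fold changes of 0.10 for Nrf1, -0.30 for Gabpa and 0.42 for Yy1, of which Yy1 was called with TMM and stood at -0.33 with library totals. Of the 15 genes of mitochondrial DNA that were listed, among them the ribosomal RNAs that these proteins bind, 0 were found by name. They could therefore not be analysed here.

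Of 73 nuclear subunits of oxidative phosphorylation tested, 24 were higher and 19 lower with TMM (median log2 fold change 0.07), and 5 higher and 56 lower with library totals, between Atp5g1, of the ATP synthase rotor ring (-1.30), and Cox7c of cytochrome oxidase (2.44). Within each library the members summed, per kilobase, to 7.77%, 8.05% and 7.88% of these subunits in heart and to 8.77%, 9.38% and 9.74% in quadriceps. This ratio needs no scaling, and all quadriceps libraries lay above all heart libraries, with a mean 1.18 times that in heart. The median log2 level of the members minus that of the subunits was -3.42 ± 0.0396 in heart and -3.42 ± 0.0772 in quadriceps, and the tissues overlapped.

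**Figure D4:**
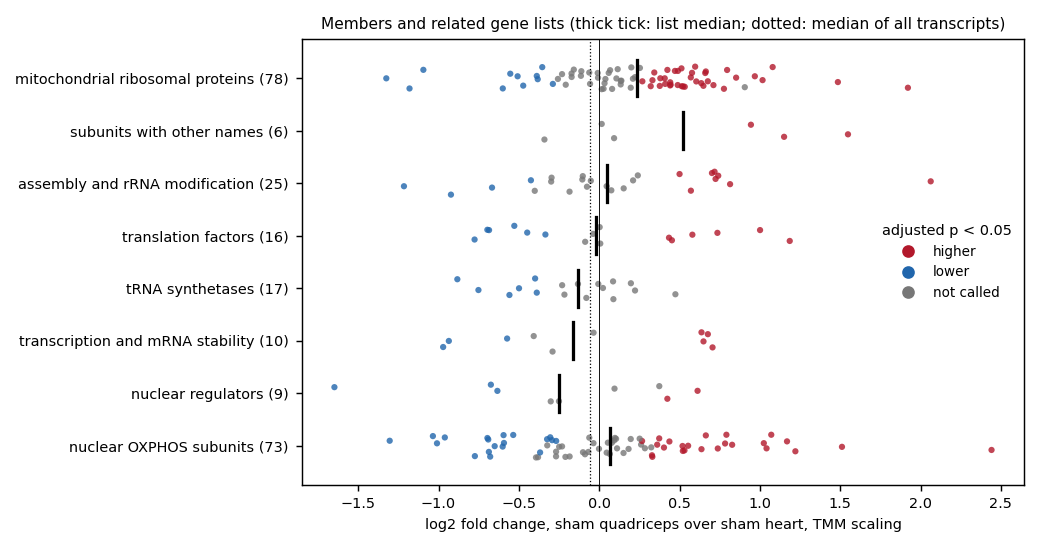
Log2 fold change, sham quadriceps over sham heart with TMM scaling, of each tested gene of the members and of 7 related lists, with the number of genes in parentheses. Points are genes, coloured by call, thick ticks are list medians and the dotted line is the median of all transcripts tested. The members' median (0.24) lies to the right of the dotted line, that of the tRNA synthetases (-0.13) to its left, and every list holds genes on both sides of 0.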

How the data were processed

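RNA sequencing of poly(A)-selected RNA from 9 libraries was used. Trimming by the authors used Trim Galore!, alignment to mm10 used STAR and counting used Rsubread. The authors deposited raw counts for each RefSeq transcript, and the transcript length, classed as an other value, was deposited beside them by the authors. RPKM values (12 columns of single libraries) and the authors' edgeR fold changes and p-values were not used.

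The test was the quasi-likelihood test of edgeR 4.0.16 (R 4.3.3, TMM), fitted to every transcript whose count exceeded 5 in 2 or more of the 6 sham libraries. DESeq2 1.42.0, library totals, upper-quartile factors, other count filters, other transcripts, a likelihood ratio test, a replicate block and leaving out libraries were alternatives. Replicates differed by more than sampling noise, and those of quadriceps more than those of heart. The chi-square of a pair was 7.39 to 10.8 per degree of freedom in heart and 34.1 to 59.7 in quadriceps. The fit took the spread of a transcript as shared by both tissues. Deviations of same-numbered heart and quadriceps libraries correlated between -0.05 and 0.05, so the numbers were not taken to pair them. On simulated data for this comparison (23903 transcripts tested), 77% of 100 changes of log2 1.0 and 2% of 100 changes of 0.5 were recovered, with 7.06% false calls. Only these transcripts were changed in the simulation, whereas in the data 32.2% of transcripts were called higher and 34.4% lower. The adjusted p cut is stricter when few transcripts change, so the recovered shares do not give the power for the members.

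Genes were named by rule: the 8 lowest and 8 highest members, the extremes of level, members not called, role lists, cardiomyopathy genes and the extremes of each related list. Nrf1, Gabpa, Yy1, the genes overlapping members and Mrpl9 and Mrps18a promoters were chosen after their values were seen. The members and all lists were chosen with earlier results of these data known. Positions are from GENCODE vM21 and promoters from RefSeq GRCm38.p6.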

Additional observations from a re-analysis of the deposited data

How the results depend on the processing

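The scaling decided most directions. With library totals 4 members were higher and 51 lower, the median was -0.52, and 10 related genes were higher and 115 lower. On the log2 scale 1 member lay over 1, 12 under -1 and 1 past 2. The median of all transcripts was -0.80 with library totals. Shares of all transcripts past these limits were counted only with TMM on all libraries, as given above, so these counts have no background beside them. All 4 members that were higher and 11 of those that were lower were also called in that direction with TMM. The sign turned negative in 46 members, among them Mrps24 (-0.67), Mrps18a (-0.73), Mrpl3 (-0.68), Mrpl9 (-0.64), Mrpl27 (-0.62), Mrpl2 (-0.53), Mrpl40 (-0.50), Mrps5 (-0.43), Mrps21 (-0.42), Mrpl17 (-0.34), Mrpl22 and Mrpl24 (both -0.31), Mrps22 (-0.28), Mrpl18 and Mrpl45 (both -0.26), Mrps12 (-0.25), Mrps33 (-0.18), Mrps30 (-0.15), Mrpl11 (-0.075) and Mrps18b (-0.040). With upper-quartile factors 2 members lay over 1, the median was 0.15, and 7 members turned negative, among them Mrps18a (-0.058), Mrpl3 (-0.017) and Mrps24 (-0.0037). The median was 0.16 with at least 10 counts in every library, where 5 members turned negative, among them Mrps18a (-0.040), and 3 did without a count filter, among them Mrps18a (-0.0091). The second transcript of Mrps33 stood at -0.010. The cause was not tested.

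Leaving out each library in turn gave 30 to 39 members higher and 8 to 11 lower, 3 to 5 over 1, 3 under -1 and 0 past 2, a median of 0.19 to 0.32, 40 to 50 related genes higher and 32 to 48 lower, and a ratio of members to oxidative phosphorylation subunits of 1.15 to 1.21 (1.002 by median level). Members near 0 crossed it, among them Mrps18a (-0.033 to 0.11), Mrps36 (-0.13 to 0.10), Mrpl38 (-0.34 to 0.11), Mrpl46 (-0.34 to 0.010) and Mrpl47 (-0.40 to 0.00075). Without the first library of both tissues, an alternative chosen after seeing the data, Mrpl38 stood at 0.051. The replicate numbers share no stated animal, and with a replicate block 36 members were higher and 10 lower, all of them called without it, with a median of 0.23. Mrps23 lost its call under the block. TATA letters stood in 2.90% of member promoters and in 10.4% of all promoters when the window began 150 bases before the start. Few counts limit Mrpl23 most, whose SE was 0.41.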
